A study of Mus musculus with 12 samples.

Results

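The set named lipid carriers and lipid transporters holds Fabp3, Fabp5, Apoe, Abca1 and Abcg1, with the lipase gene Lpl and the drug exporter gene Abcg2. Expression of these genes was followed in 12 arrays of mouse embryonic stem cells (ESC). The 7 genes were found by their exact symbol in the deposited annotation, and they were 7 of 17621 genes tested. Where a symbol stood on more than 1 probe set, the set used was chosen by its mean signal over all 12 arrays, the highest being kept, which takes no account of the groups. The genes themselves were selected on earlier results of these arrays, the log2 levels of the 4 groups, so their values and tests below describe these arrays and are no independent evidence.

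The study compared ESC without the BMP receptor gene Bmpr1a (Bmpr1a-/-), which carried green fluorescent protein (GFP), with unlabelled wild-type ESC. Equal parts of both were mixed and kept for 3 days in serum-free N2B27 medium, or each was kept separate, and mixed cells were then parted by sorting on GFP. The 4 groups of 3 arrays were separate wild-type, mixed wild-type, separate Bmpr1a-/- and mixed Bmpr1a-/- cells, and the arrays were Affymetrix MoGene ST arrays of total RNA. The headers carry 1 cell code for each genotype, so genotype, line and GFP cannot be told apart. The sources used here do not say whether separate cells were also sorted, so co-culture and sorting cannot be told apart in mixed against separate cells. A change with co-culture means mixed minus separate below. The column headers number the replicates of each group exp1 to exp3, without saying whether these are separate cultures, so p-values measure the spread between these arrays, which may be technical. Each array measured a population, in which fewer cells expressing a gene and less RNA per cell cannot be told apart.

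Lipids move in cells and between them bound to proteins. Fabp3 and Fabp5 are small cytosolic proteins that bind fatty acids and take them to membranes, enzymes and nuclear receptors. Apoe is a secreted apolipoprotein that binds lipoprotein receptors, and Lpl is the lipase that frees fatty acids from the triglycerides of lipoproteins. Abca1 passes cholesterol and phospholipid to apolipoproteins, Abcg1 exports sterols to lipoprotein particles, and Abcg2 exports drugs, urate and porphyrins and marks some stem cells. Liver X receptors, nuclear receptors for oxysterols, are known to induce Abca1, Abcg1, Apoe and Lpl in macrophages.

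Upstream sequence is shown for Fabp3 and Apoe, the genes whose change with co-culture differed between genotypes, and for Abca1, whose level followed genotype. RefSeq windows (build GRCm38.p6) were matched for 4 of the 7 genes, and the 250 bases before the start site are printed in gene direction, with the first of the 3 listed starts for Apoe. Capitals mark letters that match a motif searched on both strands.
Fabp3, chr4:130308488-130308737, + strand: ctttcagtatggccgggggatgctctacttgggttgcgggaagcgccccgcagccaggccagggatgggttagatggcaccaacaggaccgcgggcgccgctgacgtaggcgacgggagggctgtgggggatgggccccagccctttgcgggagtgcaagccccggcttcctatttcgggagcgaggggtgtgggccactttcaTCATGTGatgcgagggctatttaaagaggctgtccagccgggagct
Apoe, chr7:19699189-19699438, - strand: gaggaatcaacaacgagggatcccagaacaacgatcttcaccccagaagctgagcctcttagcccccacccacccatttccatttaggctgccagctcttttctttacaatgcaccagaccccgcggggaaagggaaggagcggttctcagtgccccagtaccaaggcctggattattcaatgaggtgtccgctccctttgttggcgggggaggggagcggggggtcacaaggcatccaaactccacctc
Abca1, chr4:53159896-53160145, - strand: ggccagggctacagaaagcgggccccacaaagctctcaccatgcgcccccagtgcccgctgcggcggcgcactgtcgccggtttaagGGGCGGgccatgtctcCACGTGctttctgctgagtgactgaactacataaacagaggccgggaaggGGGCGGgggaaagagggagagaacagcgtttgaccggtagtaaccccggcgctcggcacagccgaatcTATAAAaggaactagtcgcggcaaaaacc
The Fabp3 window held TCATGTG, the M-box of the MITF family, 46 bases before the start. This motif was added after the sequence had been read, and 3.25% of 32851 windows of the same length in the table hold it. The Abca1 window held TATAAA (12.4% of windows) at 29 bases, 2 copies of GGGCGG (32.7%) and the E-box CACGTG (6.02%). In the Apoe window printed none of these motifs was found, while the window of its start 2 held TATAAA at positions -100 and -96 from the start. AGGTCA, a nuclear receptor motif (14% of windows), was in none of the 3 windows printed. In Abcg2, the other gene matched, which has 3 listed starts, AGGTCA lay at positions -212 and -121 of start 1 and -197 of start 3, and GGGCGG lay in the windows of starts 2 and 3. Exact direct repeats of AGGTCA with 1 base (0.0335%) or 4 bases (0.0152%) between the copies were found at no start of the 4 genes. Repeats with changed letters were not searched, so the printed windows may hold such imperfect copies. A match or its absence says nothing about binding.

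The labels were checked first. Bmpr1a gave a signal of 362 to 462 on the Bmpr1a-/- arrays and 505 to 588 on the wild-type arrays. The sources used here do not say how its probes lie relative to the deleted part, so this is a weak check. All 12 ESC markers were measured, with a summed signal of 6604 to 7742 on wild-type and 10662 to 12161 on Bmpr1a-/- arrays, and Esrrb, Zfp42, Dppa5a, Tdgf1, Tfcp2l1 and Klf2 were higher in Bmpr1a-/- cells in both kinds of culture. Pou5f1 was higher in separate culture (0.75, adjusted p = 0.00025) but did not pass in mixed culture (0.22, adjusted p = 0.11), and Sox2 passed in mixed culture (0.77, adjusted p = 0.0095) but not in separate culture (0.08, adjusted p = 0.86). Lin28a was lower in separate culture (-0.33, adjusted p = 0.048). Of all genes 4.94% were called higher and 6.3% lower in separate culture, and 6.36% and 10.1% in mixed culture. Array medians of signal lay between 51.6 and 54.3.

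Fabp3 and Apoe were highest in Bmpr1a-/- cells taken from mixed culture, and Lpl was lowest in Bmpr1a-/- cells grown alone. Abcg2 was highest in Bmpr1a-/- cells grown alone, while Abca1 and Abcg1 were higher in Bmpr1a-/- than in wild-type cells in both kinds of culture. Fabp5 was lower in mixed Bmpr1a-/- than in mixed wild-type cells. The signal on each array is given below for replicates 1, 2 and 3 of a group in that order, on the linear scale of the deposited RMA values.

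**Figure D1:**
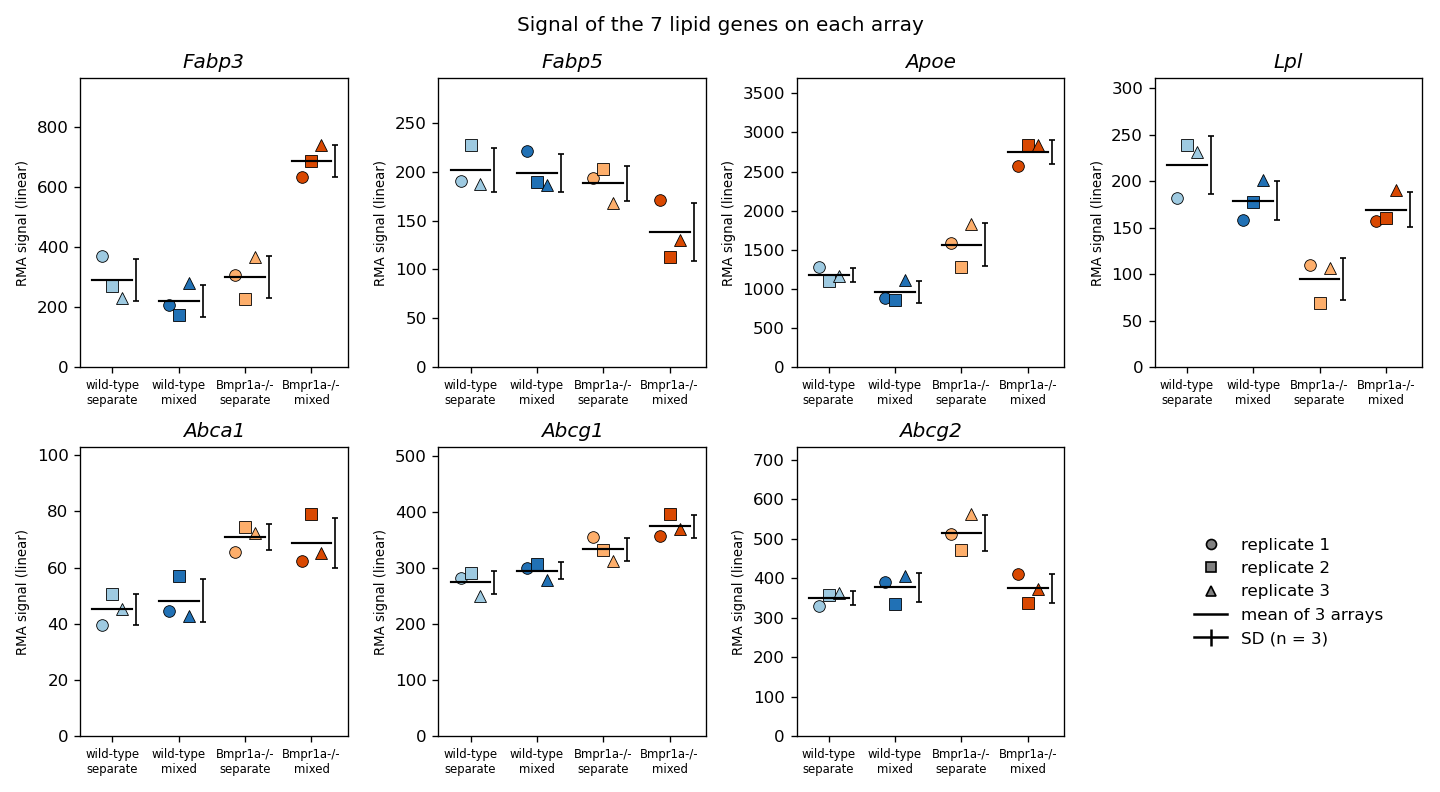
Linear RMA signal (y axes, each from 0) of the 7 genes on each of the 12 arrays, by group (x axes), with markers for the replicate number, a line at the mean and a bar of 1 SD (n = 3). The 3 mixed Bmpr1a-/- arrays lie above all others for Fabp3 (635 to 741) and Apoe (2575 to 2839), and the 3 separate Bmpr1a-/- arrays below all others for Lpl (69.5 to 110).

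Fabp3, the carrier known from heart and muscle, gave 370, 270 and 233 in separate wild-type and 209, 175 and 281 in mixed wild-type cells. It gave 307, 229 and 368 in separate and 635, 689 and 741 in mixed Bmpr1a-/- cells. The mixed Bmpr1a-/- arrays stood apart from the other 9, whose 3 groups overlapped. The means were 688 ± 53.3 (SD, n = 3) in mixed and 301 ± 70 in separate Bmpr1a-/- cells.

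Fabp5, the epidermal member of the family, gave 190, 227 and 187 in separate wild-type and 221, 189 and 186 in mixed wild-type cells. It gave 193, 203 and 168 in separate and 171, 113 and 130 in mixed Bmpr1a-/- cells. The mixed Bmpr1a-/- arrays were low, but the highest of them, 171, overlapped the lowest separate one. The 3 other groups overlapped throughout.

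For these carriers the array holds 2 probe sets each, and in both cases the brighter was used. The dimmer Fabp3 probe set gave 549 to 675 in mixed Bmpr1a-/- cells and 178 to 357 on the other 9 arrays. The dimmer Fabp5 probe set gave 111 to 160 in mixed Bmpr1a-/- cells and 149 to 208 elsewhere. The brighter Fabp5 probe set has no RefSeq accession in the files and the dimmer one has. RefSeq lists pseudogenes of both carriers, and without probe sequences the share of signal from near-identical copies is uncertain.

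**Figure D2:**
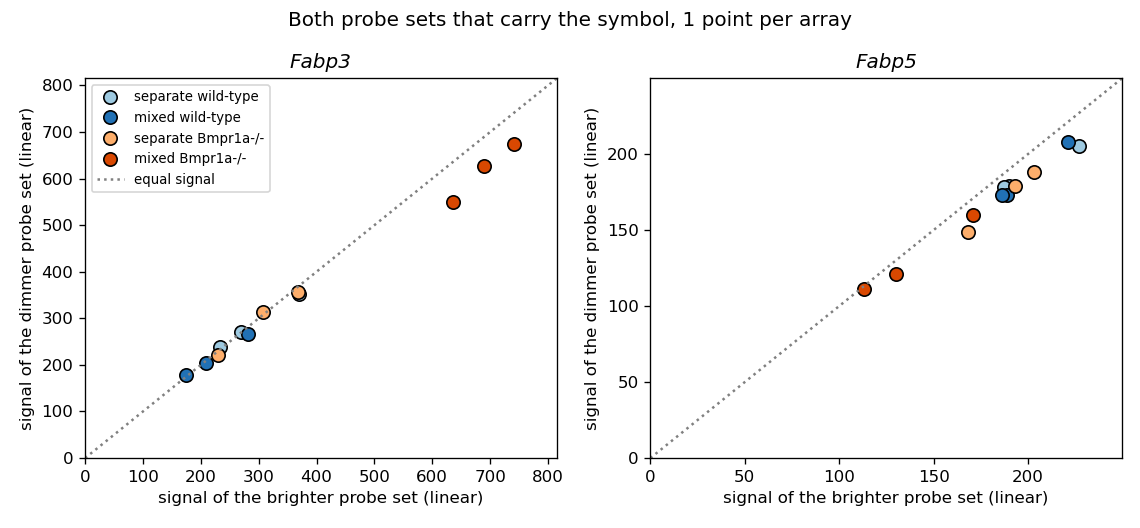
Linear RMA signal of the dimmer probe set (y axis) against the brighter one (x axis) for Fabp3 and Fabp5, 1 point per array and a dotted line at equal signal. In Fabp3 the mixed Bmpr1a-/- arrays are highest by both probe sets, and in Fabp5 the lowest 2 arrays, at 113 and 130 by the brighter one, are mixed Bmpr1a-/- arrays.

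Apoe, the secreted carrier, gave 1281, 1098 and 1167 in separate wild-type and 887, 867 and 1122 in mixed wild-type cells. It gave 1592, 1279 and 1837 in separate and 2575, 2839 and 2837 in mixed Bmpr1a-/- cells. The mixed Bmpr1a-/- arrays were again above the rest. Below them came separate Bmpr1a-/-, separate wild-type and mixed wild-type cells, and each neighbour in that order overlapped the next.

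Lpl, the lipase, gave 182, 239 and 232 in separate wild-type and 159, 178 and 201 in mixed wild-type cells. It gave 110, 69.5 and 107 in separate and 157, 161 and 191 in mixed Bmpr1a-/- cells. Only separate Bmpr1a-/- cells stood apart, below the rest, and the other 3 groups overlapped each other.

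Of the transporters, Abca1 gave 39.6, 50.5 and 45.3 in separate and 44.7, 56.9 and 42.9 in mixed wild-type cells. It gave 65.7, 74.4 and 72.3 in separate and 62.4, 79 and 65.1 in mixed Bmpr1a-/- cells. The genotypes did not overlap, and the kinds of culture did within each genotype. These signals are low but lie above the filter, a mean signal of 25.4.

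Abcg1 gave 283, 291 and 251 in separate and 300, 308 and 279 in mixed wild-type cells. It gave 356, 332 and 314 in separate and 357, 397 and 371 in mixed Bmpr1a-/- cells. The genotypes were apart, the wild-type groups overlapped, and the Bmpr1a-/- groups were apart by a signal of less than 1 SD.

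Abcg2 gave 330, 358 and 363 in separate and 391, 335 and 406 in mixed wild-type cells. It gave 512, 471 and 563 in separate and 412, 339 and 374 in mixed Bmpr1a-/- cells. Separate Bmpr1a-/- cells were above all others, and the other 3 groups overlapped.

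The first comparison sets Bmpr1a-/- cells from mixed culture against those grown alone. Fabp3 rose by 1.22 on the log2 scale (SE 0.20, adjusted p = 0.014), or 2.32-fold. Lpl went from 95.7 ± 22.8 to 170 ± 18.9 in signal, a rise of 0.85 (SE 0.17, adjusted p = 0.027). Apoe went from 1569 ± 279 to 2750 ± 152, a rise of 0.82 (SE 0.13, adjusted p = 0.01). Abcg2 fell by 0.46 (SE 0.10, adjusted p = 0.037), from 515 ± 46.2 to 375 ± 36.1. Fabp5 (-0.47, adjusted p = 0.12), Abcg1 (0.17, adjusted p = 0.34) and Abca1 (-0.05, adjusted p = 0.94) did not pass.

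So 3 of the 7 genes were called higher and 1 lower in this comparison, where 1.58% of all genes were called, 0.789% higher and 0.795% lower. The groups were apart in 5 of the 7, and in 18% of all genes. The median change was 0.17 over the 7 genes and -0.02 over all genes, and the median size of a change was 0.47 and 0.08. Arrays of the same number differed, mixed minus separate, by 1.05, 1.59 and 1.01 (log2) in Fabp3 and by 0.69, 1.15 and 0.63 in Apoe. In Lpl the differences were 0.50, 1.21 and 0.83, and in Abcg2 -0.31, -0.47 and -0.59. In each of the 4 genes the groups were apart, so any pairing of the arrays would give the same direction in 3 of 3 pairs. In the 3 that rose the pair of replicate 2 differed most.

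The arrays of this comparison met the pairing criterion used here, deviations of same-numbered arrays correlating above 0.1 in all 3 pairs. The labels do not state such pairs. With the number as a block the same 4 genes passed while the share of all genes called was 4.98%. The block was fitted over all 12 arrays, also in groups that did not meet the criterion. Without mixed Bmpr1a-/- replicate 2 or 3 none of the 7 genes passed, and 50 and 66 genes passed in all. Without separate Bmpr1a-/- replicate 2 only Apoe passed, and Abcg2 also lost its call without 4 further arrays (separate Bmpr1a-/- replicates 1 and 3, mixed wild-type replicate 1 and separate wild-type replicate 2). Over the 12 fits with 1 array left out, the change kept its direction in these 4 genes, with 1.03 to 1.38 for Fabp3, 0.68 to 0.95 for Apoe, 0.63 to 0.97 for Lpl and -0.53 to -0.39 for Abcg2. The highest adjusted p was 0.07, 0.054, 0.13 and 0.16 in that order.

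**Figure D3:**
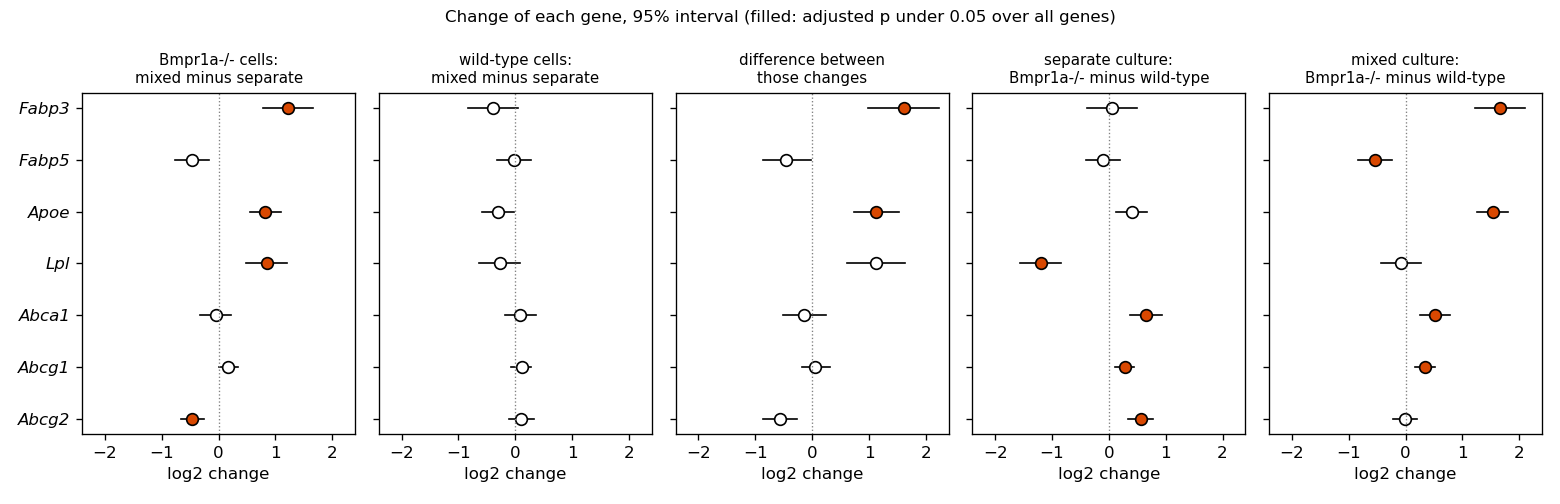
Log2 change (x axes) of each gene (rows) in the 5 comparisons, with the 95% interval from limma as a line; filled points had an adjusted p under 0.05 over all genes tested. In Bmpr1a-/- cells mixed minus separate was 1.22 for Fabp3, 0.85 for Lpl and 0.82 for Apoe. In wild-type cells the 3 values were -0.39, -0.27 and -0.31 and did not pass.

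The second comparison sets wild-type cells from mixed culture against those grown alone. None of the 7 genes passed by limma, and neither did any other gene (0% of all genes called, with 516 genes, or 2.93%, at an unadjusted p under 0.05). The values were -0.39 for Fabp3 (95% interval -0.83 to 0.05), -0.31 for Apoe (-0.59 to -0.03) and -0.27 for Lpl (-0.64 to 0.09), each with adjusted p = 1.0. Abcg2 (0.10), Abcg1 (0.11), Abca1 (0.09) and Fabp5 (-0.02) lay nearer to 0. In none of the 7 were the groups apart, against 6.99% of all genes. Apoe and Lpl were lower in the mixed array in 3 of 3 pairs of the same number, by 0.53, 0.34 and 0.06 and by 0.19, 0.42 and 0.21 (log2). Abcg1 was higher in 3 of 3, by 0.09, 0.08 and 0.15. The arrays of this comparison did not meet the pairing criterion, so these counts only describe arrays that share a number.

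The change with co-culture differed between the genotypes in Fabp3 and in Apoe. The change of Fabp3 was larger in Bmpr1a-/- than in wild-type cells by 1.61 (SE 0.29, adjusted p = 0.026) and that of Apoe by 1.13 (SE 0.18, adjusted p = 0.019). Lpl came next with 1.12 (SE 0.24, adjusted p = 0.053), followed by Abcg2 with -0.56 (SE 0.14, adjusted p = 0.10) and Fabp5 with -0.45 (adjusted p = 0.41), and these did not pass. In Abca1 (-0.14, 95% interval -0.52 to 0.25) and Abcg1 (0.06, -0.18 to 0.31) no difference was found. The count was 2 of 7, both higher, against 0.687% of all genes called, 0.301% higher and 0.386% lower. With the replicate number as a block 4 of the 7 passed, Lpl and Abcg2 being added, against 2.2% of all genes, but the numbers do not pair the arrays in all 4 groups.

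Both calls depended on single arrays. Fabp3 passed in 4 of the 12 fits that left out 1 array, and lost its call without replicate 1 or 2 of any wild-type group, replicate 2 or 3 of the mixed Bmpr1a-/- or replicate 1 or 2 of the separate Bmpr1a-/- cells (highest adjusted p = 0.085). Apoe passed in 7, and its call ended without replicate 1 or 2 of the mixed wild-type, replicate 1 of the separate wild-type or replicate 2 or 3 of the mixed Bmpr1a-/- cells (highest adjusted p = 0.067). The differences themselves ranged from 1.42 to 1.79 in Fabp3 and from 0.99 to 1.25 in Apoe.

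Grown separately, the genotypes differed in Lpl and in the 3 transporters. Lpl was lower in Bmpr1a-/- cells (-1.2 on the log2 scale, SE 0.17, adjusted p = 0.0009), at 95.7 ± 22.8 against 218 ± 31.1. Abca1 was higher by 0.66 (SE 0.12, adjusted p = 0.0054), Abcg2 by 0.56 (SE 0.10, adjusted p = 0.0035) and Abcg1 by 0.28 (SE 0.08, adjusted p = 0.038). Apoe (0.40, adjusted p = 0.069), Fabp3 (0.05, 95% interval -0.39 to 0.49) and Fabp5 (-0.10, -0.40 to 0.20) did not pass.

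These 4 calls among 7 genes, 3 higher and 1 lower, stand against 11.2% of all genes called, 4.94% higher and 6.3% lower. The groups were apart in 4 of the 7 genes and in 24.5% of all genes. Arrays of the same number differed by -0.72, -1.78 and -1.11 in Lpl, by 0.73, 0.56 and 0.68 in Abca1 and by 0.64, 0.39 and 0.64 in Abcg2. Lpl, Abca1 and Abcg2 passed whichever array was left out. With the replicate block 5 of the 7 passed, Apoe being added, against 16.2% of all genes, but these arrays did not meet the pairing criterion. The call of Abcg1 ended without any 1 of 7 arrays: each of the separate wild-type arrays, separate Bmpr1a-/- replicate 1 or 2, mixed wild-type replicate 1 and mixed Bmpr1a-/- replicate 3 (highest adjusted p = 0.12).

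Sorted from mixed culture, the genotypes differed most in Fabp3 and Apoe. Fabp3 was higher in Bmpr1a-/- cells by 1.66 (SE 0.20, adjusted p = 0.00017), or 3.16-fold, and Apoe by 1.53 (SE 0.13, adjusted p = 1.5e-05), or 2.89-fold. Abca1 was higher by 0.52 (SE 0.12, adjusted p = 0.012), from 48.2 ± 7.63 to 68.8 ± 8.9, and Abcg1 by 0.34 (SE 0.08, adjusted p = 0.0096), from 296 ± 15.3 to 375 ± 20.3. Fabp5 was lower (-0.54, SE 0.14, adjusted p = 0.017), at 138 ± 29.7 against 199 ± 19.7. Lpl (-0.08, 95% interval -0.44 to 0.28) and Abcg2 (-0.01, -0.22 to 0.20), which differed in separate culture, did not pass here.

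With 4 genes higher and 1 lower, 5 of 7 were called, against 16.5% of all genes, 6.36% higher and 10.1% lower. The groups were apart in 5 of the 7 and in 32.7% of all genes. By pairs of the same number Fabp3 differed by 1.60, 1.98 and 1.40 and Apoe by 1.54, 1.71 and 1.34, and both passed whichever array was left out. With the replicate block the same 5 genes passed, against 21.6% of all genes. The call of Fabp5 ended without mixed Bmpr1a-/- replicate 2 or 3 or mixed wild-type replicate 1, that of Abca1 without mixed Bmpr1a-/- replicate 2 or mixed wild-type replicate 3, and that of Abcg1 without mixed Bmpr1a-/- replicate 2 (highest adjusted p = 0.082, 0.064 and 0.051). This comparison shares its mixed Bmpr1a-/- arrays with the first and its mixed wild-type arrays with the second.

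The array with the highest or lowest signal of a group differed between genes. In separate Bmpr1a-/- cells replicate 2 gave the lowest signal of Fabp3, Apoe, Lpl and Abcg2 and the highest of Fabp5 and Abca1. In mixed Bmpr1a-/- cells replicate 2 gave the highest signal of Abca1 and Abcg1 and the lowest of Fabp5 and Abcg2, while Fabp3 and Lpl were highest in replicate 3. Apoe there was nearly equal in replicates 2 and 3, at 2839 and 2837. Fabp3 varied widely between wild-type arrays, with 291 ± 70.7 in separate and 222 ± 54.2 in mixed wild-type cells.

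The genes closest in pattern were sought by the root-mean-square difference of log2 signal over the 12 arrays, each gene centred on its own mean. Closest to Fabp3, whose own centred values had a root mean square of 0.67, were Bhlhe41, a transcriptional repressor (0.18), Cldn4 of tight junctions (0.20) and Apoe (0.20). Closest to Apoe (0.59) were Igf2r, a receptor for mannose 6-phosphate (0.16), Renbp (0.17) and Gstt2 (0.18). For Lpl (0.49) they were Stom (0.18), LOC668529 (0.19) and Smim14 (0.21). The members with flatter patterns had as nearest genes Pinx1 for Fabp5 (0.08, own value 0.28), Enox1 for Abca1 (0.11, 0.33), Wnt7b for Abcg1 (0.07, 0.19) and Hyal1 for Abcg2 (0.11, 0.24). These distances describe the 12 arrays and were not tested.

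Around the 7 genes, 11 lists of lipid genes were read from the same fit, with 151 of 176 distinct genes tested. With mixed culture of Bmpr1a-/- cells 7 of the 151 passed, 4 higher and 3 lower, and 4 of the 7 were Fabp3, Lpl, Apoe and Abcg2. In this comparison 1.58% of all genes were called, 0.789% higher and 0.795% lower, and the 3 further calls among the other 144 genes are near that share. The others were Osbpl1a, an oxysterol-binding protein of late endosomes (0.54, SE 0.09, adjusted p = 0.012), and the fatty acid transport genes Slc27a3 (-0.47, adjusted p = 0.038) and Slc27a2 (-0.45, adjusted p = 0.037). Each of these 3 calls ended without mixed Bmpr1a-/- replicate 2 or 3 or separate Bmpr1a-/- replicate 2. That of Slc27a2 also ended without separate Bmpr1a-/- replicate 1 or 3, and that of Slc27a3 without separate Bmpr1a-/- replicate 1, mixed Bmpr1a-/- replicate 1 or mixed wild-type replicate 2. The highest adjusted p was 0.069 for Osbpl1a and 0.16 for each of the others. The median change of the 151 was 0.00, and that of all genes -0.02.

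By family, Fabp3 was the sole call among 8 fatty acid and retinoid carriers in this comparison, Apoe among 14 genes of apolipoproteins and lipoprotein assembly, and Lpl among 10 lipases and their regulators. Abcg2 was the sole call among 21 ABC transporters, and 2 of 12 genes of fatty acid uptake fell. None passed of 15 lipoprotein receptors, 15 lipid droplet genes, 14 genes of fatty acid oxidation or 17 nuclear receptors and regulators, against 1.58% of all genes called, a share at which lists this small hold under 1 call on average. Of 16 known targets of the liver X receptors 2 rose, Lpl and Apoe, and the median was 0.02. Both, like the sole calls named above, are members selected on these data, so these counts are not independent of that selection. The receptor genes themselves, Nr1h3 (-0.15, adjusted p = 0.43) and Nr1h2 (-0.05, adjusted p = 0.91), did not pass, nor did the targets Mylip (0.11), Arl4c (0.18) and Srebf1 (-0.28).

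**Figure D4:**
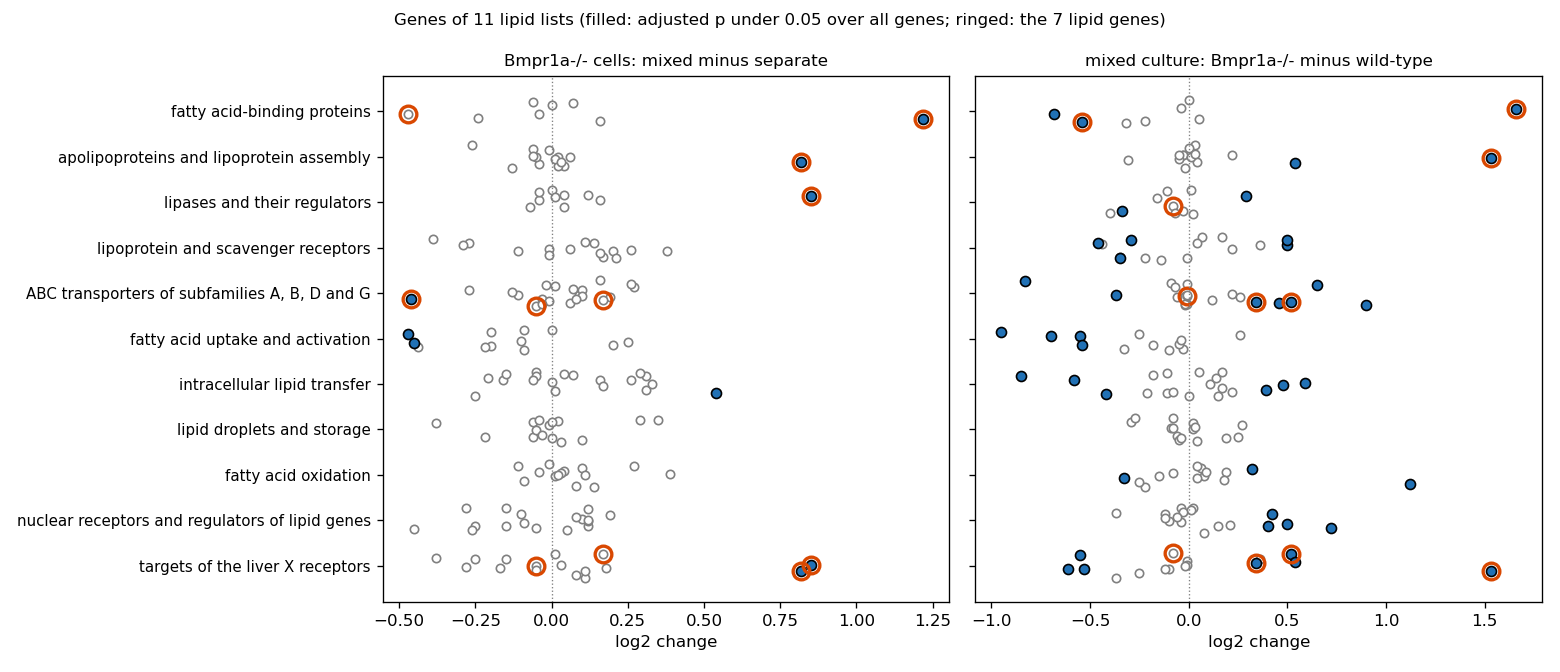
Log2 change (x axes) of each tested gene of 11 lipid lists (rows, spread vertically for legibility) in Bmpr1a-/- cells with mixed culture, left, and between genotypes in mixed culture, right; filled points passed, rings mark the 7 genes, and a gene of several lists is drawn in each. On the left 7 of 151 genes passed, with Fabp3, Lpl and Apoe farthest to the right, and on the right 39 passed.

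Between genotypes, 12 of the 151 genes were higher and 16 lower in Bmpr1a-/- cells in separate culture, where 4.94% of all genes were called higher and 6.3% lower. In mixed culture 20 were higher and 19 lower, where 6.36% and 10.1% of all genes were. These counts include the members, which were selected on these data. Of the members 3 were higher and 1 lower in separate culture, and 4 higher and 1 lower in mixed culture. The medians of the 151 were -0.04 and -0.02. Single lists were not all divided, but their counts are small. Of 14 genes of apolipoproteins and lipoprotein assembly 2 were higher and 0 lower in each culture, Apoe being 1 of them in mixed culture. Of 17 nuclear receptors and regulators 2 were higher in separate and 4 in mixed culture, with 0 lower. Of 12 genes of fatty acid uptake 1 was lower in separate and 4 in mixed culture, with 0 higher. In separate culture alone, 3 of 10 lipases and regulators were lower with 0 higher, and 2 of 15 lipid droplet genes higher with 0 lower. Of all genes 11.2% were called in separate and 16.5% in mixed culture, so no direction is read from these counts. Higher in both were the efflux pump genes Abcb1b (1.04 separate, 0.65 mixed) and Abcb1a, the gatekeeper of mitochondrial fatty acid import Cpt1a (0.79 and 1.12) and the phospholipid transfer gene Pltp (0.47 and 0.54). Tfe3, a regulator of lysosomal genes (0.84 and 0.50), and Nr5a2, a nuclear receptor of pluripotent cells (0.51 and 0.72), were also higher in both. Of the other called genes of fatty acid oxidation, Acadvl was lower in both (-0.36 and -0.33). Cpt2 was lower in separate culture (-0.36) and Pdk4 higher in mixed culture (0.32).

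Among genes lower in both were Pctp, which transfers phosphatidylcholine (-0.96 and -0.85), and the peroxisomal transporter gene Abcd2 (-0.71 and -0.83). The retinoic acid carrier gene Crabp1 (-0.73 and -0.68) and Sort1, a sorting receptor (-0.47 and -0.46), were lower in both too. So were Acsl6 of fatty acid uptake and activation (-0.58 and -0.54) and Sel1l of the lipase regulators (-0.33 and -0.34). The endocytic receptor gene Lrp2 (-0.90) was lower in separate culture, and Mfsd2a, which carries lysophospholipids (-0.95), Slc27a2 (-0.70) and Acsl4 (-0.55), which activates fatty acids, in mixed culture. The change with co-culture differed between genotypes in 4 of the 151 genes, against 0.687% of all genes. They were Fabp3 and Apoe, both selected on these data, Osbpl1a (0.65, adjusted p = 0.037) and Slc27a2 (-0.82, adjusted p = 0.022). The count is therefore not independent of that selection. The Osbpl1a call held in 2 of 12 fits with 1 array left out, those without mixed Bmpr1a-/- replicate 1 or separate Bmpr1a-/- replicate 3 (highest adjusted p = 0.12). The Slc27a2 call held in 7 and ended without replicate 2 of any group or mixed Bmpr1a-/- replicate 3 (highest adjusted p = 0.067). Among targets of the liver X receptors, Abca1, Abcg1 and Pltp were higher in Bmpr1a-/- cells in both kinds of culture, while the desaturase genes Scd1 and Scd2 were lower in both.

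Macrophages, adipocytes and extraembryonic endoderm are known to express several of these genes, and their markers were read beside them. Of 10 macrophage markers 6 were tested, with a summed signal of 378 to 443 in mixed Bmpr1a-/- cells, 273 to 332 in separate Bmpr1a-/- and 263 to 338 in wild-type cells. Between genotypes in mixed culture Cd68, a lysosomal membrane gene (0.80, adjusted p = 0.011), and Itgam (0.35, adjusted p = 0.012) were higher. In Bmpr1a-/- cells none of the 6 passed between mixed and separate culture, with Cd68 at a mean signal of 254 against 156 (0.72, adjusted p = 0.077) and Itgam at 41.2 against 38.1. The group means of the other 4 were 26 to 26.9 for Ptprc, 26.8 to 27.1 for Csf1r, 25.2 to 26.5 for Fcer1g and 30.7 to 33.6 for Tyrobp, where the filter was 25.4.

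For the other cell types no marker passed with co-culture in either genotype. Of 13 endoderm markers 12 were tested, with a summed signal of 571 to 627 in mixed and 595 to 624 in separate Bmpr1a-/- cells, and the group means of Sox17, 26.9 to 27.9, lay near the filter. The 4 tested adipocyte markers of 8 summed to 153 to 168 in mixed and 152 to 163 in separate Bmpr1a-/- cells. The 10 trophoblast markers summed to 1537 to 1897 in mixed and 1426 to 1543 in separate Bmpr1a-/- cells, and the 8 tested fibroblast markers to 579 to 616 and 568 to 627. The 10 neural markers summed to 996 to 1054 in mixed and 1102 to 1132 in separate Bmpr1a-/- cells. Of the ESC markers 1 rose in Bmpr1a-/- cells with co-culture, Esrrb (0.73, adjusted p = 0.031). The part of these marker levels in the values of the 7 genes was not tested.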

How the data were processed

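Total RNA of 12 arrays was labelled with biotin and hybridised to Affymetrix MoGene ST arrays. Per the submitters' processing notes and the file headers, the authors ran RMA in Affymetrix Expression Console 1.2, with quantile normalization at the core transcript level. The deposited workbook holds linear intensity values that its authors call raw, and the deposited series table holds log2 values centred per probe set. Subtracting the series table from the log2 of the linear sheet left 1 value per probe set (varying over arrays by at most 2.2e-06). The linear sheet thus holds RMA signal, and its log2 was used. The sources used here do not name the genome build of the annotation.

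Of 28815 probe sets, 22700 had 1 symbol, updated through a RefSeq table (GRCm38.p6), 2478 had several and 3637 none. A mean signal of at least the 20th percentile (25.4) was required, and the brightest remaining probe set of a gene was kept, which gave 17621 genes. All 7 members passed this filter. Pairs of arrays correlated between 0.9799 and 0.9981. RMA pulls low signals together, so changes of dim probe sets are understated.

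Group means were fitted with limma 3.58.1 in R 4.3.3 on all 12 arrays (8 residual degrees of freedom), with 5 comparisons and Benjamini-Hochberg adjustment over all genes, two-sided, at 0.05. The script was tested on simulated data. Members and lists were chosen with earlier results of these data known. The text names the 7 members, Bmpr1a, the genes nearest in pattern and, per list, passing genes with the largest changes. A few list genes that did not pass, and marker genes, were named after their values were seen. The replicate number was taken to pair arrays where the deviations of same-numbered arrays from their group means correlated above 0.1 in all 3 pairs. This held for mixed against separate Bmpr1a-/- cells (0.148 to 0.394) and for the genotypes in mixed culture (0.381 to 0.641). It did not hold for the other comparisons. The precision of single values is limited by 3 arrays a group.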

Additional observations from a re-analysis of the deposited data

Results flagged for a closer look

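The change with co-culture differed between genotypes by a direct test in 2 of the 7 genes, against 0.687% of all genes called. The 7 genes were selected on these data, so the count is not independent of that selection. For Fabp3 the change in Bmpr1a-/- cells exceeded that in wild-type cells by 1.61 (log2, SE 0.29, adjusted p = 0.026 by limma). The changes were 1.22 in Bmpr1a-/- and -0.39 in wild-type cells. For Apoe the difference was 1.13 (SE 0.18, adjusted p = 0.019), with 0.82 in Bmpr1a-/- and -0.31 in wild-type cells. Neither wild-type change passed. Over the fits that left out 1 array, adjusted p ranged from 0.02 to 0.085 for Fabp3 and from 0.013 to 0.067 for Apoe.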

How the results depend on the processing

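Over 738 values of the 7 genes under alternatives, 662 kept direction and side of the threshold, 51 lost a call, 12 gained one and 13 changed sign. For mixed against separate Bmpr1a-/- cells the count of 4 members became 2 with no filter on low values and 1 with only the groups compared in the fit, where 46 genes passed in all. For the interaction the count of 2 became 1 with no filter, 4 with the replicate block and 4 with array weights, Lpl and Abcg2 being added by the block (adjusted p = 0.016 and 0.031). With 1 array left out the counts ran from 0 to 5, 0 to 0, 0 to 3, 3 to 4 and 2 to 5 in the order of the report. The replicate block also gave Apoe a call between genotypes in separate culture (adjusted p = 0.023), where the pairing criterion was not met. It changed no other call of a member. Genes called in all rose with it from 279 to 878, from 121 to 387, from 1981 to 2854 and from 2905 to 3814. With array weights they were 454 in the first comparison and 209 in the interaction, and with only the groups compared 1170 between genotypes in separate culture. With 1 array left out they ran from 50 to 390, 25 to 132, 1083 to 1967 and 1851 to 3122. Sign changes were in values near 0 that had not passed. With 1 array left out, Abca1 ran from -0.15 to 0.02 in Bmpr1a-/- cells with co-culture, and in wild-type cells Fabp5 ran from -0.10 to 0.07 and Abca1 from -0.04 to 0.17. Between genotypes Fabp3 in separate culture ran from -0.11 to 0.24, and in mixed culture Lpl from -0.17 to 0.01 and Abcg2 from -0.09 to 0.06, the last at 0.02 when the arrays were quantile normalized again. The dimmer probe sets gave the same calls for Fabp3 and Fabp5. The headers name no scan day among these arrays, and their labels exp1 to exp3 equal the replicate numbers, so a block on these labels is the replicate block and no other batch block was run. The causes of these shifts were not tested.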
